A study of Mus musculus with 6 samples.

Results

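The genes described here encode the complexes that methylate lysine 4 of histone H3 (H3K4), and they were taken from the RNA-Seq expression table of mouse embryonic stem cells (ESCs) with an altered H2A.Z. Their entries were found by symbol alone, from a list drawn up with earlier results of these data known. The 10 names *Mll1*, *Mll2*, *Mll3*, *Setd1a*, *Setd1b*, *Wdr5*, *Ash2l*, *Rbbp5*, *Dpy30* and *Men1* were looked up among the 21639 gene entries. Each of 9 names matched 1 entry, and *Setd1b* matched none and was not analysed here. Poly(A) RNA was sequenced from 3 ESC lines at 2 times, D0 (undifferentiated ESCs) and D3 (embryoid bodies, EBs, the floating aggregates in which ESCs differentiate after withdrawal of LIF), with 1 library for each of the 6 conditions. Each line carried a lentiviral short hairpin against the untranslated end of the endogenous H2A.Z transcript. The H2A.Z WT line also expressed a doxycycline-inducible wild-type H2A.Z fused to YFP, the H2A.Z AP3 line expressed the same construct with 3 residues of the acidic patch replaced by those of H2A, and the H2A.Z KD line is named for the hairpin alone. The transgenes were driven by a CMV promoter under an inducible rtTA system, and transgenic cells were sorted for YFP. The labels give the strain V6.5 (129SvJaexC57BL/6) for every sample, whereas the methods name KH2 ESCs as the parent of the transgenic lines. The lines are written WT, KD and AP3 below. Because every condition has 1 library, no difference between 2 libraries could be checked against replicates, and those differences have no p-values.

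The SET domain of an MLL or SET1 enzyme is weak on its own, and it becomes active when bound to a core of WDR5, RBBP5, ASH2L and DPY30 that every complex of the family shares. SET1 complexes lay down most of the trimethyl mark (H3K4me3) at active promoters, MLL1 and its closest relative KMT2B act on developmental genes such as the *Hox* clusters, and MLL3 and KMT2D monomethylate enhancers. Menin, the product of *Men1*, is found only with MLL1 and KMT2B. In ESCs most promoters that carry H3K4me3 are also sites of H2A.Z, and DPY30 and WDR5 are known to be needed for differentiation or self-renewal of these cells.

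The 4 enzyme genes measured have the longest transcripts of the group in mm9. *Mll1* (now *Kmt2a*) lies on chromosome 9 from 44611438 to 44689357 on the − strand, and its longest annotated transcript has 36 exons and 16470 bases. The entry named *Mll2* lies on chromosome 15 from 98662102 to 98701614 on the − strand, which is the gene now called *Kmt2d* (55 exons, 19805 bases), an enhancer methyltransferase. The gene now called *Kmt2b* is listed apart from it, as *Wbp7*. *Mll3* (now *Kmt2c*) lies on chromosome 5 from 24777612 to 25004601 on the − strand, with 60 exons and 16901 bases, and *Setd1a* on chromosome 7 from 134920903 to 134943633 on the + strand, with 19 exons and 6487 bases.

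The core subunits and *Men1* have shorter transcripts. *Wdr5* is on chromosome 2 (27370667 to 27392053, + strand, 2890 bases), *Ash2l* on chromosome 8 (26927342 to 26958142, − strand, 3315 bases), *Rbbp5* on chromosome 1 (134373944 to 134402242, + strand, 3632 bases) and *Dpy30* on chromosome 17 (74698814 to 74723284, − strand, 799 bases). *Men1* is on chromosome 19 (6334979 to 6340894, + strand, 3002 bases). No other entry of the table overlapped any of these 9 loci. *Wdr5b*, a close copy of *Wdr5* elsewhere in the genome, was at 0.30 to 1.1 RPKM.

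RefSeq promoters (build GRCm38.p6, 250 bases before to 50 bases after a start) were found for 8 of the 10 genes, all but *Setd1b* and *Ash2l*. The promoters of the 3 MLL enzymes were rich in CpG, with 36 sites in *Mll1*, 27 in *Mll2* and 56 in *Mll3*. The median over 32851 promoters was 7, and 93.8%, 84.5% and 99.8% of promoters held fewer sites than these. This was not particular to them, as *Setd1a* held 35 CpG (93.0% of promoters held fewer) and the 4 starts of *Dpy30* 1 to 39 (95.6% for the highest). *Wdr5* held 22, *Rbbp5* 16 and the starts of *Men1* 11 to 16. The GC box GGGCGG, the core of the recognition sequence of SP1-family factors, was searched for on both strands. It was present at 8 of the 13 annotated starts of these genes, which belong to 6 of the 8 genes, and at 35.7% of all promoters, with 5 copies in *Mll1*, 4 in *Mll2* and 12 in *Mll3*. *Setd1a* and *Rbbp5* had no match in this window. The box of *Dpy30* did not lie wholly before its start and is not shown. For the MLL enzymes, *Wdr5* and *Men1* the 30-base stretches that hold the nearest GC box before the start are shown. They run 5′ to 3′ on the gene's strand with the box in capitals as CCGCCC, the same motif on the opposite strand. Their positions were found by matching each stretch to mm9, where each had 1 match on its chromosome.
Mll1, chr9:44689394-44689423, − strand: ccctccgcctccCCGCCCccctgtgttgtc
Mll2, chr15:98701690-98701719, − strand: gctcgggattcgCCGCCCtggggctgttca
Mll3, chr5:25004610-25004639, − strand: cccgcttgcccgCCGCCCcccgccggcccc
Wdr5, chr2:27370637-27370666, + strand: ttttctgaccctcgtcgCCGCCCgttgtcc
Men1, chr19:6334871-6334900, + strand: agctcagcttacCCGCCCtggagcagcagg
These boxes began 39, 71 and 26 bases before the start in *Mll1*, *Mll2* and *Mll3*, 13 bases before it in *Wdr5* and 96 in *Men1*. These distances are from the RefSeq starts, which in *Mll1* and *Mll2* lie upstream of the gene bounds of the table given above. A match of letters is a description of the sequence and does not show binding.

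The libraries held about 16.8 to 29.3 M reads by an estimate from the lowest RPKM values, with AP3 at D0 the deepest, and 11644 to 11802 entries reached 1 RPKM (reads normalized to transcript length and library size). *H2afz*, the gene the hairpin targets, was at 279, 343 and 304 RPKM in the ESCs labelled WT, KD and AP3, and at 258, 236 and 394 RPKM in their EBs. It was not lower under the KD label at D0, so that line is called the library labelled KD. This does not measure the knockdown, because every line carries the hairpin and *H2afz* reads in WT and AP3 could also come from the transgene. The paper reports depletion of the endogenous transcript by the hairpin, measured by qRT-PCR. Of 9 ESC markers 8 were found, and *Pou5f1* was at 358 to 540 RPKM in every library. *Klf4* was at 121, 131 and 65.9 RPKM in ESCs and 17.4, 17.1 and 14.9 RPKM in EBs of WT, the library labelled KD and AP3. In AP3 ESCs *Sox2* (log2 difference −0.80) and *Klf4* (−0.88) were past 1.5-fold below WT, whereas *Pou5f1* was at 0.36. Summed levels of 8 feeder fibroblast markers were 27.8, 24.2 and 46.4 RPKM at D0 and 13.3, 7.68 and 9.90 RPKM at D3 in WT, the library labelled KD and AP3. Those of 6 extraembryonic endoderm markers were 16.4, 20.5 and 46.9 RPKM at D0 and 74.8, 188 and 102 RPKM at D3. At D3 the higher sum of AP3 than of WT came from *Dab2* (70.3 against 41.8 RPKM), and the median difference of the 5 markers at 1 RPKM or more was −0.03. Those of 6 early EB markers were 6.51, 8.65 and 3.32 RPKM in ESCs and 32.8, 35.4 and 25.7 RPKM in EBs, and *Otx2* was at 4.22 RPKM in WT ESCs and 1.37 RPKM in AP3 ESCs (−1.62). The sums hide unlike courses of single feeder markers. *Col1a1* stood at 9.76, 7.42 and 15.5 RPKM in ESCs and 1.54, 0.923 and 2.57 RPKM in EBs, and *Col1a2* was likewise highest in AP3 on both days (22.5 and 2.36 RPKM). *Thy1* was at 1.74, 2.42 and 1.74 RPKM in ESCs and at 9.19, 5.48 and 3.56 RPKM in EBs, where it made up the largest part of the WT sum, while *Postn* and *Lum* were at 0 to 0.333 RPKM in every library. The part of these cells in the differences below was not tested, and in bulk RNA fewer cells of a type cannot be told apart from less RNA per cell.

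The core subunits ASH2L, DPY30 and WDR5 had the highest transcript levels of the group, and the MLL enzymes the lowest. *Ash2l* was at 141 RPKM in WT, 153 in the library labelled KD and 155 in AP3 ESCs, and the EBs of the same lines had 110, 103 and 106 RPKM. The D0 and D3 values did not overlap, with every EB library below every ESC library. *Dpy30*, whose product is a small dimer that docks on ASH2L, was at 85.9, 76.2 and 92.3 RPKM in ESCs and 95.2, 104 and 122 RPKM in EBs, and here every EB library was above every ESC library. *Wdr5*, which encodes the WD-repeat scaffold that holds the enzyme, was at 69.9, 69.4 and 61.3 RPKM in ESCs and 60.6, 64.6 and 58.0 RPKM in EBs. *Rbbp5*, the fourth core subunit gene, was far lower than the other three, at 22.4, 20.6 and 18.3 RPKM at D0 and 16.8, 18.0 and 13.8 RPKM at D3. Its lowest value was that of AP3 EBs.

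Among the enzymes *Setd1a* was highest, at 18.4, 20.7 and 16.0 RPKM in ESCs and 19.5, 17.8 and 18.6 RPKM in EBs in WT, the library labelled KD and AP3. The line order differed between the days. *Mll2* was at 10.4, 10.5 and 7.41 RPKM in ESCs and 10.1, 9.44 and 7.39 RPKM in EBs. *Mll1* was at 7.0, 5.94 and 5.18 RPKM in ESCs and 5.33, 5.98 and 4.93 RPKM in EBs. *Mll3* was at 6.60, 5.24 and 4.67 RPKM in ESCs and 4.92, 6.82 and 4.24 RPKM in EBs. In all 3 MLL genes both AP3 libraries were below the other 4 libraries, by unlike margins. The highest AP3 and the lowest other value were 5.18 and 5.33 RPKM in *Mll1*, 4.67 and 4.92 RPKM in *Mll3*, and 7.41 and 9.44 RPKM in *Mll2*. *Men1* was at 11.0, 13.7 and 11.3 RPKM in ESCs and 14.1, 12.7 and 14.1 RPKM in EBs, with overlapping days and lines.

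**Figure D1:**
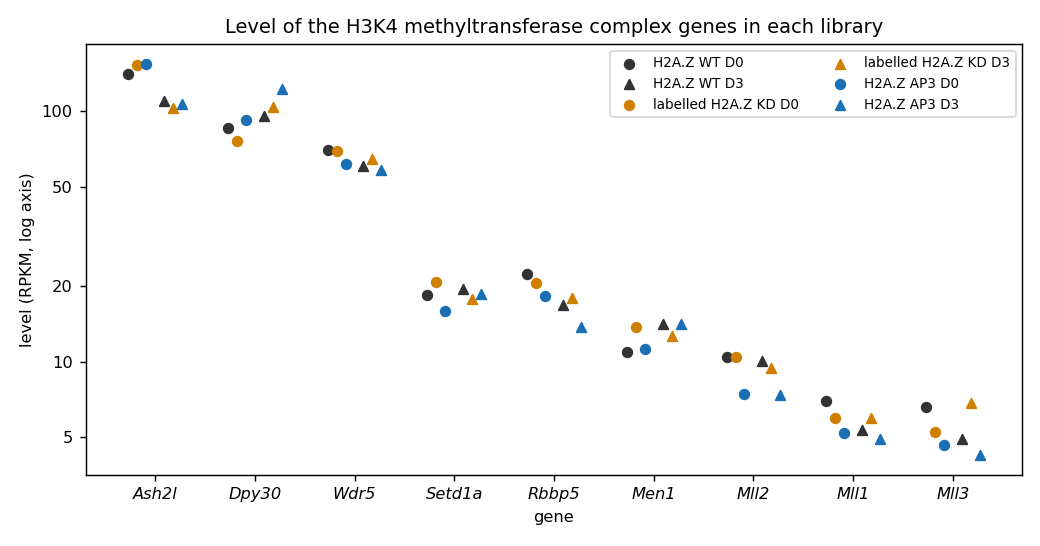
Level of the 9 genes in each of the 6 libraries, in RPKM on a log axis, ordered by their mean, with circles for D0, triangles for D3 and colours for the lines (1 library per point, no error bars). *Ash2l* spans 103 to 155 RPKM and *Mll3* 4.24 to 6.82 RPKM, and the blue AP3 points are the lowest for *Mll1*, *Mll2* and *Mll3* on either day.

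In order of mean RPKM the genes ran *Ash2l* (128), *Dpy30* (96.0), *Wdr5* (63.9), *Setd1a* (18.5), *Rbbp5* (18.3), *Men1* (12.8), *Mll2* (9.19), *Mll1* (5.72) and *Mll3* (5.41). The ranges over the 6 libraries overlapped between *Ash2l* and *Dpy30*, between *Setd1a* and *Rbbp5*, between *Rbbp5* and *Men1*, and between *Mll1* and *Mll3*, and for the other neighbours they were apart. *Wdr5* stood directly below *Ash2l* and *Dpy30* in every library, and *Mll2* directly below *Men1*, *Setd1a* and *Rbbp5*. *Ash2l* led in 4 libraries, and *Dpy30* led in the library labelled KD and in AP3 at D3. In WT ESCs 98.2% of all entries were lower than *Ash2l*, and 66.2% were lower than *Mll3*.

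Summed over *Mll1*, *Mll2*, *Mll3* and *Setd1a*, the enzymes were at 42.4, 42.4 and 33.2 RPKM at D0 in WT, the library labelled KD and AP3. In EBs the sums were 39.8, 40.0 and 35.2 RPKM. The sum was lowest in AP3 on both days. *Setd1a* made up 43.4% to 52.9% of it. *Ash2l* exceeded the enzyme sum by a ratio of 2.58 to 4.66, *Dpy30* by 1.80 to 3.48 and *Wdr5* by 1.52 to 1.85, whereas *Rbbp5* stood at 0.392 to 0.552 of it. RPKM is per length of transcript, so these are ratios of transcript levels and not of proteins, and *Setd1b* and *Wbp7* are not in the sum.

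The 9 genes varied over the 6 libraries about as much as the median entry of at least 1 RPKM. Their own means were 5.41 to 128 RPKM, and no set of entries of like level was compared. Their highest value exceeded the lowest by a ratio of 1.21 in *Wdr5* to 1.63 in *Rbbp5*. The coefficient of variation had a median of 15.7%, with *Wdr5* lowest at 7.64% and *Mll3* highest at 19.6%, beside a median of 15.7% for the 11842 entries with a mean of at least 1 RPKM.

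AP3 was compared with WT to ask what mutation of the acidic patch changes in expression. In ESCs the MLL enzymes were lower by the largest amounts in the group, an order that did not hold once the median of genes of like transcript length was subtracted, and *Ash2l* and *Dpy30* were not lower. Differences are on the log2 scale with 0.001 RPKM added to both values, and a gene was called when it passed 1.5-fold (0.58). A smaller step of 0.32 on this scale is counted beside it. An approximate counting error, the standard error (SE) expected from the estimated reads alone, is given beside the values the text turns on. It leaves out differences between cultures, and it treats reads as independent molecules. At D0 the log2 difference was −0.50 for *Mll3* (SE 0.08), −0.49 for *Mll2* (SE 0.03) and −0.44 for *Mll1* (SE 0.09). *Rbbp5* followed with −0.29 (SE 0.05), *Setd1a* with −0.21 (SE 0.12) and *Wdr5* with −0.19 (SE 0.06). *Ash2l* was at 0.13 (SE 0.02), *Dpy30* at 0.10 and *Men1* at 0.04. Less the median of genes of like transcript length, *Rbbp5* was lowest at −0.31, followed by *Mll3* (−0.28), *Mll2* (−0.27), *Mll1* (−0.21) and *Wdr5* (−0.21). None of the 9 passed 1.5-fold, a threshold that 13.9% of the 12162 entries that reached 1 RPKM in either library passed. The 3 MLL genes passed 0.32, as did 34.5% of entries. The median of the group was −0.21 with 6 of 9 genes lower, beside a median of 0.00 and 49.4% of entries lower over all entries tested.

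At D3 the same comparison gave −0.44 for *Mll2* (SE 0.03), −0.29 for *Rbbp5* (SE 0.06), −0.22 for *Mll3* (SE 0.09) and −0.11 for *Mll1* (SE 0.10). *Mll2* and *Rbbp5* thus had close values on both days, and those of *Mll1* and *Mll3* were nearer to 0 in EBs. *Dpy30* was higher in AP3 by 0.36 (SE 0.05). On the scale less the length median, *Rbbp5* was again lowest at −0.29, *Mll2* was at −0.23, *Mll3* at 0.00 and *Dpy30* at 0.25, and *Mll1* turned its direction (0.10). *Setd1a*, *Wdr5*, *Ash2l* and *Men1* lay between −0.07 and 0.00. No member passed 1.5-fold, against 10.2% of 11981 entries, and *Mll2* and *Dpy30* passed 0.32, against 28.9%. The median of the group was −0.07, with 7 of 9 genes lower, beside −0.01 and 51.0% lower for all entries.

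Both days together, 3 of the 9 genes, the MLL enzymes, had AP3 values that did not overlap those of the other 4 libraries, and in all 3 they were lower. The margin was narrow in *Mll1* (5.18 against 5.33 RPKM) and *Mll3* (4.67 against 4.92 RPKM). The share of entries with no overlap in either direction was 11.9%, and 5.31% of entries were lower in this way. This grouping was added after the levels had been seen. The shares depended on transcript length. Of the 84 entries with a longest transcript over 12 kb, the class of the MLL genes, 22.6% were lower in both AP3 libraries without overlap and 2.38% higher, whereas in the 896 entries under 1 kb these shares were 2.23% and 10.6%.

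**Figure D2:**
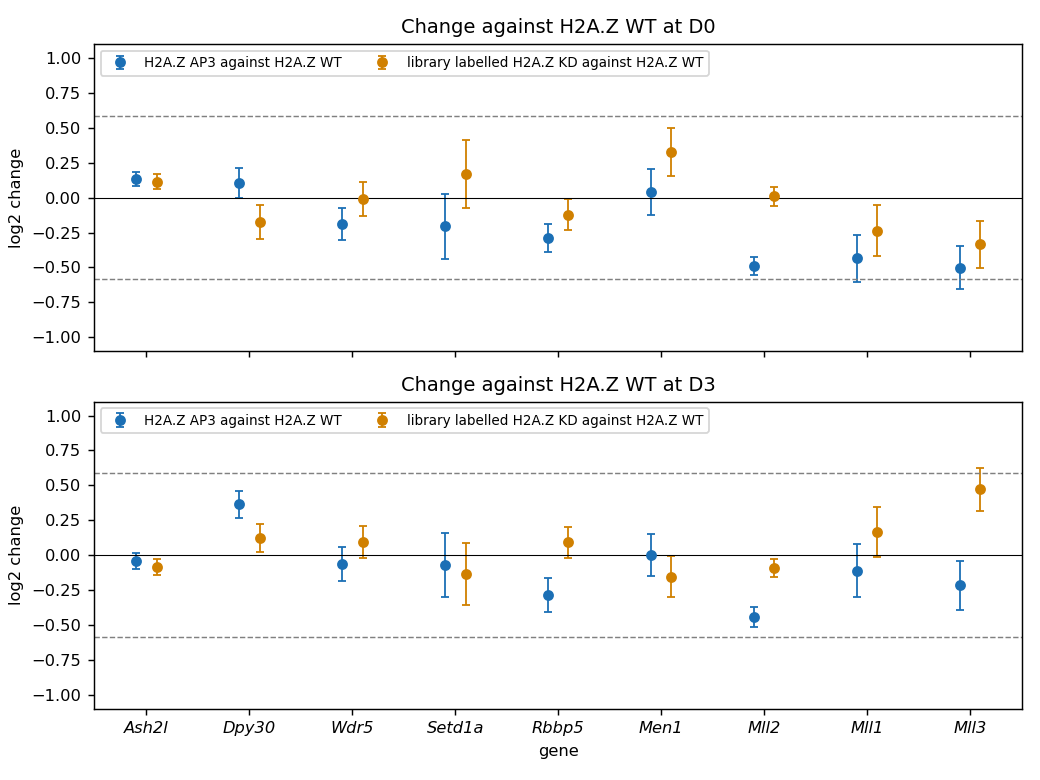
Log2 difference of each gene from WT at D0 (top) and D3 (bottom), for AP3 in blue and the library labelled KD in orange, with bars of 2 counting SE on either side and dashed lines at 1.5-fold. All points lie within the dashed lines, and *Mll2* in AP3 is at −0.49 at D0 and −0.44 at D3.

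In the library labelled KD the enzymes showed no common direction. At D0 *Mll3* was lower than in WT by a log2 difference of −0.34 (SE 0.08) and *Mll1* by −0.24 (SE 0.09), whereas *Mll2* was at 0.01 (SE 0.03) and *Setd1a* at 0.17 (SE 0.12). *Men1* had the largest positive value, 0.32 (SE 0.09). The core subunits were between −0.17 (*Dpy30*) and 0.11 (*Ash2l*). No member passed 1.5-fold, beside 8.02% of 12067 entries, and *Mll3* and *Men1* passed 0.32, beside 24.7%. The group median was −0.01 with 5 of 9 genes lower, and that of all entries was −0.03 with 55.3% lower.

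At D3 *Mll3* was higher in the library labelled KD than in WT, by 0.47 (SE 0.08), the opposite of its D0 direction. *Mll1* was at 0.17, *Mll2* at −0.09 and *Setd1a* at −0.14. The 4 core subunit genes lay between −0.09 (*Ash2l*) and 0.12 (*Dpy30*), and *Men1* was at −0.16. Again no member passed 1.5-fold (8.59% of 11956 entries did), and only *Mll3* passed 0.32 (26.6% of entries). The group median was 0.09 with 4 of 9 genes lower, beside −0.03 and 54.7% lower over all entries. With that of genes of like transcript length subtracted it was 0.01, with *Mll1* at 0.01 and *Mll2* at −0.24. The WT library of each day enters the comparisons of both lines.

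Set against the library labelled KD, AP3 had lower enzyme levels at D0, with *Mll2* at −0.50 (SE 0.03), *Setd1a* at −0.38 (SE 0.11), *Mll1* at −0.20 and *Mll3* at −0.17. *Men1* was at −0.28, *Wdr5* at −0.18 and *Rbbp5* at −0.17, and *Dpy30* was higher by 0.28 (SE 0.05). None passed 1.5-fold, which 18.4% of 12163 entries did, and *Mll2* and *Setd1a* passed 0.32, as 42.1% of entries did. The group median was −0.18 and that of all entries 0.04.

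At D3 *Mll3* was lower in AP3 by −0.69 (SE 0.08), from 6.82 to 4.24 RPKM. It was the only one of 81 differences, 9 genes in 9 comparisons, to pass 1.5-fold, and 11.3% of 11943 entries passed in this comparison. *Rbbp5* followed at −0.38 (SE 0.06) and *Mll2* at −0.35 (SE 0.03), and with *Mll3* they passed 0.32, beside 32.5% of entries. *Mll1* was at −0.28, *Dpy30* at 0.24 and *Setd1a* at 0.07. The group median was −0.16, beside 0.02 for all entries, and −0.0039 less the median of genes of like transcript length. The call of *Mll3* was lost with a pseudocount of 1, which left −0.58, just short of the threshold, and when the median of genes of like transcript length was subtracted, which left −0.36. On the latter scale *Mll2* was at −0.02 and *Mll1* at 0.05.

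Between ESCs and EBs the core subunit genes had differences of opposite sign. *Ash2l* was lower at D3 in all 3 lines, by −0.36 in WT (SE 0.03), −0.56 in the library labelled KD (SE 0.03) and −0.54 in AP3 (SE 0.02), with a mean of −0.49 ± 0.11 (SD, n = 3 lines). *Rbbp5* was lower by −0.41, −0.20 and −0.41 in the same order, a mean of −0.34 ± 0.12 (SD, n = 3 lines). *Wdr5* was at −0.21, −0.10 and −0.08. *Dpy30* was higher by 0.15, 0.44 and 0.41, a mean of 0.33 ± 0.16 (SD, n = 3 lines). The lines are different genotypes and not replicates, so the SD covers line and culture alike. *Ash2l*, *Rbbp5* and *Dpy30* did not overlap between the days, although for *Rbbp5* the gap between the lowest ESC and the highest EB value was only 0.390 RPKM, against 31.3 RPKM for *Ash2l* and 2.90 RPKM for *Dpy30*. Fitted over the 3 lines with limma, with the line as a block and Benjamini-Hochberg adjustment over all entries, *Ash2l* passed (log2 difference −0.49, SE 0.11, adjusted p = 0.037), as did 11% of 12702 entries. The adjusted p was 0.12 for both *Dpy30* and *Rbbp5*, and at least 0.44 for the other 6 genes. The call of *Ash2l* was lost without WT (log2 difference −0.55, adjusted p = 0.14), without the library labelled KD (−0.45, adjusted p = 0.12) and without a trend of variance with level (−0.49, adjusted p = 0.11). Its adjusted p over all settings ran from 0.015 to 0.14. The fit treats the lines as repeats of the change from D0 to D3 and was added after the values had been seen. *Ash2l*, *Dpy30* and *Rbbp5* are 3 of 9 genes (33.3%) without overlap, and 33.3% of 12702 entries did not overlap between the days in either direction.

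The enzymes followed no shared course. *Mll1* was lower at D3 in WT by −0.39 (SE 0.09) and was at 0.01 in the library labelled KD and −0.07 in AP3. *Mll3* was lower in WT by −0.42 (SE 0.08), higher in the library labelled KD by 0.38 (SE 0.08), and at −0.14 in AP3. *Mll2* was within −0.15 and 0.00 in the 3 lines. *Setd1a* was at 0.08, −0.22 and 0.22. *Men1* was higher at D3 by 0.37 in WT (SE 0.08) and 0.33 in AP3 (SE 0.07), and was at −0.11 in the library labelled KD. Less the median of genes of like transcript length, the WT values were −0.10 for *Mll1*, 0.24 for *Mll2*, −0.13 for *Mll3* and 0.11 for *Setd1a*. In AP3 all 4 enzymes were above 0 on this scale, at 0.16, 0.23, 0.09 and 0.26 in the same order, and in the library labelled KD they were at 0.01, −0.15, 0.38 and −0.26.

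No gene of the group passed 1.5-fold between the days in any line, although 23% of 12240 entries did in WT, 22.3% of 12184 in the library labelled KD and 24.3% of 12204 in AP3. Past 0.32 there were 5 genes in WT (*Mll1*, *Mll3*, *Ash2l* and *Rbbp5* lower, *Men1* higher), 3 in the library labelled KD (*Ash2l* lower, *Mll3* and *Dpy30* higher) and 4 in AP3 (*Ash2l* and *Rbbp5* lower, *Dpy30* and *Men1* higher). The shares of all entries were 45.3%, 43% and 48.5%. The group medians were −0.21, −0.11 and −0.07, beside 0.04, 0.04 and 0.04 for all entries. Less the median of genes of like transcript length, as described below, they were −0.10, −0.15 and 0.16, so that of AP3 turned its direction. The direction was the same in 3 of 3 lines for 5 of the 9 genes (55.6%), beside 48.7% of entries.

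**Figure D3:**
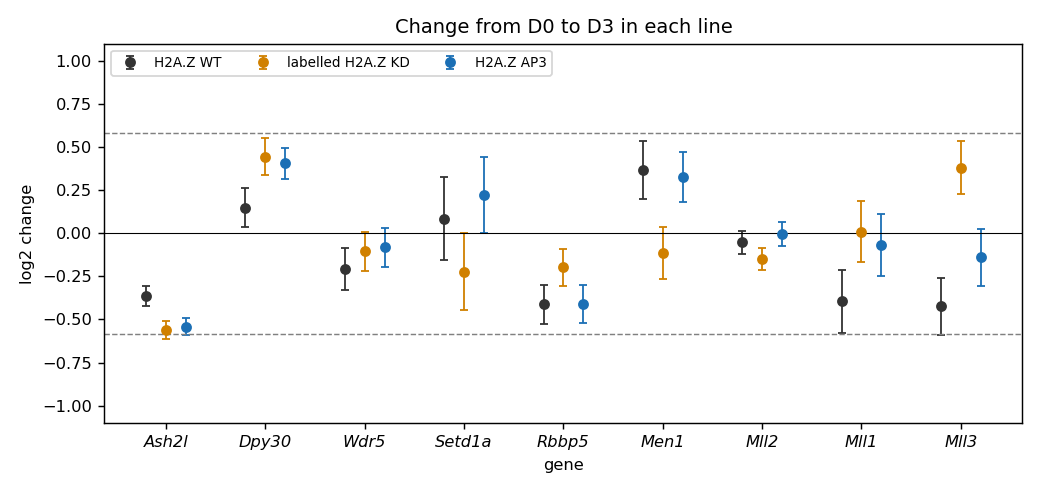
Log2 difference of D3 from D0 for each gene in WT (black), the library labelled KD (orange) and AP3 (blue), with bars of 2 counting SE on either side and dashed lines at 1.5-fold. *Ash2l* and *Rbbp5* lie below 0 and *Dpy30* above 0 in every line, and *Mll3* is at −0.42 in WT and 0.38 in the library labelled KD.

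Transcript length moved with the differences over all genes, and the MLL genes are among the longest measured. For AP3 ESCs compared with WT ESCs, the median was 0.08 for the 811 entries with a longest transcript under 1 kb and −0.23 for the 83 entries over 12 kb. At D3 these medians were 0.11 and −0.21. In AP3 against the library labelled KD at D3 they were 0.20 and −0.33, and in the library labelled KD against WT at D3 they ran the other way, from −0.09 to 0.15. Between the days they were 0.13 and −0.29 in WT, 0.04 and 0.00 in the library labelled KD, and 0.17 and −0.23 in AP3. The part of transcript length in the results for single genes was not tested.

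Less the median of their own length class, *Mll2* and *Rbbp5* were below WT in AP3 on both days, by the values given above. The direction was shared at D0 and D3 by *Wdr5* (−0.21 and −0.07), *Setd1a* (−0.17 and −0.02) and *Mll3* (−0.28 and −0.0033). Against the library labelled KD, *Mll2* in AP3 was at −0.46 at D0 and −0.02 at D3. In the library labelled KD, *Mll3* was at −0.21 at D0 and 0.32 at D3 on this scale, so it kept its opposite directions. *Ash2l* at D3 against D0 was at −0.42 in WT, −0.61 in the library labelled KD and −0.60 in AP3, and the latter 2 values passed 1.5-fold. *Dpy30*, in the shortest class, was at 0.02, 0.40 and 0.24, and *Rbbp5* was at −0.47, −0.25 and −0.47. Subtracting class medians was a choice made after the trend had been seen.

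**Figure D4:**
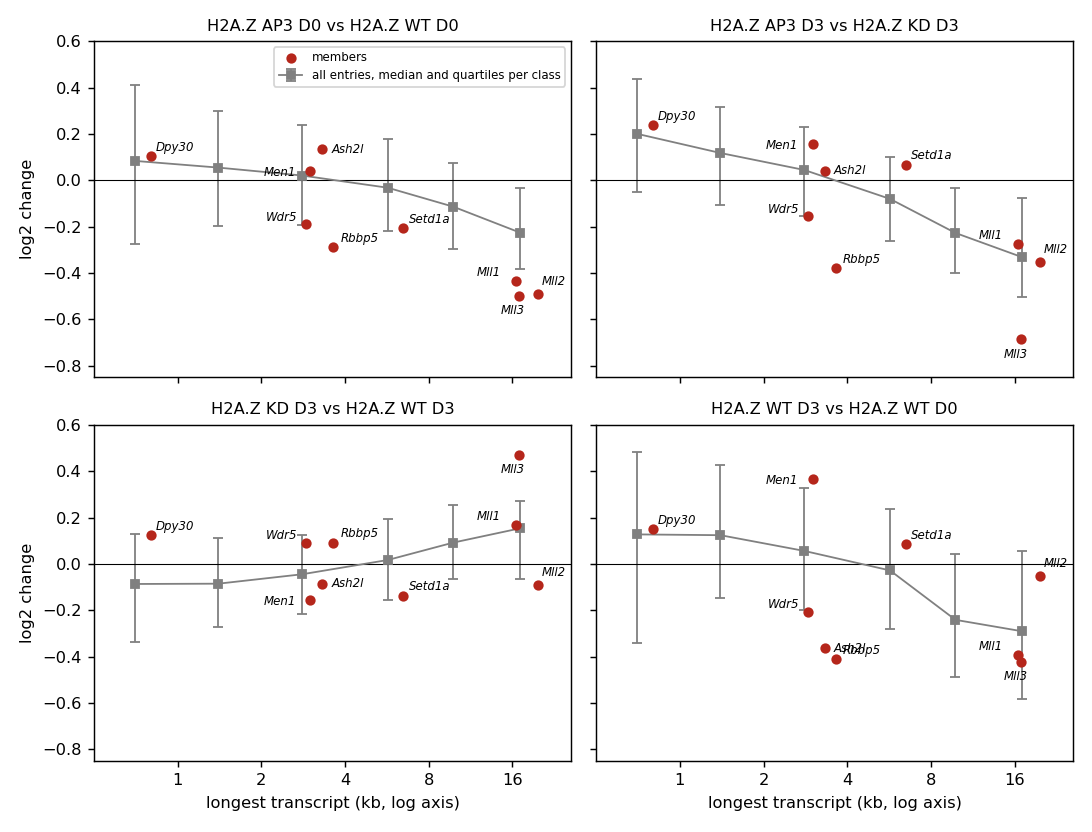
Log2 difference against the length of the longest annotated transcript (kb, log axis) in 4 comparisons, for the 9 genes (red) and for all entries that reached 1 RPKM in either library (grey squares at the middle of each of 6 length classes, medians with quartiles). KD stands for the library with that label. The class medians fall from 0.08 to −0.23 in the first panel and rise from −0.09 to 0.15 in the third, and the MLL genes are at the long end.

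Other genes of the H3K4 pathway were called, as all entries were, only where they reached 1 RPKM in 1 of the libraries compared. The shares of all entries past 1.5-fold, 13.9% and 10.2% for AP3 and 8.02% and 8.59% for the library labelled KD against WT at D0 and D3, and 23%, 22.3% and 24.3% between days in the 3 lines, apply to each list. Among 14 genes listed as partners of only some complexes, most of them subunits, *Psip1* was highest in WT ESCs at 94.4 RPKM, and *Hcfc2* lowest at 2.11 RPKM. All 14 reached 1 RPKM, and 0 passed 1.5-fold against WT in either line on either day. The median of AP3 against WT at D0 was −0.21 with 10 of 14 lower, beside 0.00 for all entries, and at D3 it was 0.00 with 7 of 14 lower. Between the days 1 of 14 passed in each line. *Rbm15*, which encodes an RNA-binding partner of SETD1B, was lower at D3, from 13.4 to 7.79 RPKM in WT (−0.79) and from 14.9 to 9.27 RPKM in the library labelled KD (−0.69), and from 10.3 to 7.08 RPKM in AP3 it stayed under the threshold (−0.54). *Hcfc2* was lower at D3 in AP3 (−0.77, from 2.61 to 1.53 RPKM). *Tasp1*, which encodes not a subunit but the protease that cuts MLL1 into its active fragments, was at 4.08, 5.06 and 2.77 RPKM at D0. This is −0.56 in AP3 against WT and −0.87 against the library labelled KD. *Tasp1* was named after its values had been seen.

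Of 8 further genes listed as H3K4 methyltransferases, an activity not examined here, *Wbp7* was highest in WT ESCs at 18.6 RPKM, near *Setd1a*. *Smyd1*, a muscle gene, was lowest at 0.464 RPKM. *Wbp7* was at 18.6, 17.7 and 16.7 RPKM in ESCs and 18.1, 16.8 and 13.9 RPKM in EBs, and was lowest in AP3 on both days as were the 3 MLL genes. Of the 6 or 7 genes that reached 1 RPKM, 0 passed 1.5-fold against WT in either line on either day. In AP3 against WT the median of the list was −0.01 at D0 and −0.29 at D3, where 5 of 7 were lower, beside 0.00 and −0.01 for all entries. *Smyd1*, which never reached 1 RPKM and was not called, was at 0.464, 0.278 and 0.216 RPKM in ESCs and 0.337, 0.0913 and 0.149 RPKM in EBs, so that WT was highest on both days. At D3 against D0, *Smyd3* (0.65, from 9.48 to 14.9 RPKM) and the meiotic enzyme *Prdm9* (0.79, from 0.968 to 1.67 RPKM) were higher in WT, and *Ash1l* was lower in AP3 (−0.67, from 4.44 to 2.79 RPKM).

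Of the 4 lists, the H3K4 demethylases and their partners alone held genes at 1 RPKM or more that passed 1.5-fold against WT, 2 of the 8 at that level in AP3 at D0 and 0 of 8 in the other 3 comparisons with WT. In AP3 against WT the median was −0.19 at D0 with 6 of 8 lower, beside 0.00 and 49.4% lower over all entries. At D3 it was −0.09 with 8 of 8 lower, the smallest difference being −0.0002, beside −0.01 and 51.0% lower. *Kdm5b*, which removes di- and trimethylation of H3K4, was at 65.4, 66.4 and 38.3 RPKM at D0, a log2 difference of −0.77 in AP3, and at 59.3, 63.0 and 52.0 RPKM at D3. *Rcor2*, a partner of the demethylase KDM1A in ESCs, was at 35.7, 37.5 and 19.9 RPKM at D0 (−0.84 in AP3) and at 38.2, 30.2 and 33.8 RPKM at D3. In both genes the AP3 ESC library stood apart below the other 5. At D3 against D0, *Rcor2* (0.77) and *Phf21a* (0.60, from 7.23 to 11.0 RPKM) were higher in AP3. *Kdm5b* was the highest of the 9 genes in WT ESCs and the Y-linked *Kdm5d* the lowest at 0.0800 RPKM.

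Among 14 genes whose products read H3K4me3, *Spin1* was highest in WT ESCs at 39.3 RPKM and *Phf2* lowest at 2.85 RPKM. All 14 reached 1 RPKM, and 0 passed 1.5-fold against WT, beside 8.02% to 13.9% of all entries. *Phf23* was at 22.5, 33.7 and 29.1 RPKM at D0, just under the threshold in the library labelled KD, and it was higher at D3 in WT (0.80, from 22.5 to 39.3 RPKM). In AP3 the median of the list lay at −0.13 in ESCs and 0.02 in EBs, relative to WT, beside 0.00 and −0.01 for all entries.

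**Figure D5:**
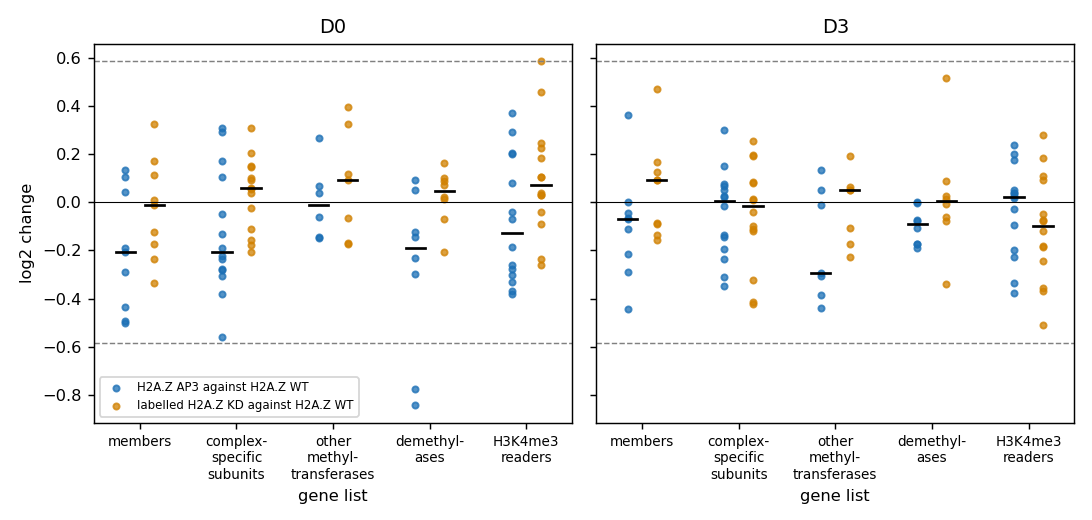
Log2 difference from WT at D0 (left) and D3 (right) for the 9 complex genes and for 4 lists of other H3K4 pathway genes (those at 1 RPKM or more in either library), with AP3 in blue and the library labelled KD in orange, black bars at the medians and dashed lines at 1.5-fold. *Kdm5b* at −0.77 and *Rcor2* at −0.84 are the points below the lower line at D0.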

How the data were processed

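Poly(A) RNA libraries (Illumina TruSeq) of 6 samples, 1 per condition, were sequenced. Per the study's methods and the submitters' processing notes, the authors mapped single-end reads with TopHat and Bowtie 0.12.7 on the mm9 assembly, allowing several locations per read, and quantified genes with Cufflinks 1.3.0. The TopHat release is given differently in these sources. The authors deposited RPKM values per gene entry, which are normalized to transcript length and library size and are not counts, together with log2 ratios between samples, which hold the authors' own comparisons and were not used. Strand use in counting is not given in the sources used here.

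Each column was matched to its sample by name. Starts in the table count from 0 and were raised by 1. Transcript lengths came from GENCODE for NCBIM37 (mm9), by symbol, and promoters from RefSeq (GRCm38.p6). Log2 differences used a pseudocount of 0.001 RPKM, and a difference past 1.5-fold was called. Background shares are over entries that reached 1 RPKM in either library compared. D3 was also compared with D0 over the 3 lines with limma on log2(RPKM + 0.001), paired by line. Depth was taken as the inverse of the first mode of RPKM × kb among low values of 3696 genes with 1 transcript over 1.5 kb, and counting errors as Poisson errors of RPKM × median transcript length × depth. Both are approximate. Scripts were tested on simulated data. The members and gene lists were chosen with earlier results of these data known. List genes were named when they passed 1.5-fold against H2A.Z WT or between days, or were the highest or lowest of their list in H2A.Z WT ESCs. List genes had to reach 1 RPKM in either library. R 4.3.3, limma 3.58.1, Python 3.11.15, numpy 2.4.6, pandas 2.3.3 and matplotlib 3.10.9 were used.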

Additional observations from a re-analysis of the deposited data

Results flagged for a closer look

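*Mll3* had differences of opposite sign under the same contrast in 2 places, each of more than 0.32 on the log2 scale. Its log2 difference between the library labelled KD and WT was −0.34 at D0 and 0.47 at D3. Between D3 and D0 it was −0.42 in WT and 0.38 in the library labelled KD. Less the median of genes of like transcript length these values were −0.21 and 0.32, and −0.13 and 0.38, so the signs stayed opposite but neither pair had both values past that step. Both pairs are made from the same 4 libraries, and the difference was not tested because there was 1 library per condition. No other of the 9 genes did this in the 6 pairs of comparisons examined.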

How the results depend on the processing

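Differences under about 0.1 on the log2 scale are near the counting error of these libraries (median SE 0.06 with the median transcript and 0.04 with the longest), and the spread between cultures is unknown. With a pseudocount of 0.1 RPKM or entries of like symbol summed, all 81 differences moved by less than 0.1, and the same held for centring on the median difference. A pseudocount of 1 RPKM moved 1 of 81 by more. Subtracting the median of the length class, added after the data were seen, moved 25 of 81. No called difference changed sign.

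The call of *Mll3* in AP3 against the library labelled KD at D3 was lost with a pseudocount of 1, with the length class median subtracted and at 2-fold, each of which left 0 members past the threshold. The length class median also changed the group medians to −0.0039 in that comparison, to −0.10 for D3 against D0 in WT and to 0.16 in AP3. *Ash2l* passed 1.5-fold at D3 against D0 in the library labelled KD when differences were centred on the median (1 member) or on the length class (1 member), and in AP3 on the length class (1 member). At a log2 threshold of 0.32 the members past the threshold were 3 and 2 for AP3 against WT at D0 and D3, 2 and 1 for the library labelled KD against WT, 2 and 3 for AP3 against that library, and 5, 3 and 4 for D3 against D0 in WT, the library labelled KD and AP3. In the pathway lists 2-fold left 0 genes past it in each list, between days and, for the demethylases, against WT. A pseudocount of 1 left 1 complex-specific subunit, 1 other methyltransferase and 1 demethylase past 1.5-fold between days. Centring left 1 demethylase between days, added 1 H3K4me3 reader against WT, and gave 3 complex-specific subunits between days in place of 2, with *Hcfc1* in the library labelled KD (−0.55 before centring). The background share over all entries of the table, low ones included, was 19.7% to 31.0%. For D3 against D0 over the 3 lines, limma with the line as a block called 1391 entries and 1 member, and without the block 1506 entries and 1 member. A pseudocount of 1 left 1 member, no trend of variance with level 0 of them (599 entries, 3117 at an unadjusted p under 0.05), and leaving out 1 line in turn 0 to 1 (545 to 2110 entries). Lines against WT have no replicates to pair.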
